A study of Rattus norvegicus with 13 samples.

Results

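The transcripts described here are those of the nuclear-encoded subunits of respiratory complexes II to V, measured in the fat of daughters of male rats on a high-fat or a chow diet. Members were all genes in the probe annotation whose symbol was Sdha, Sdhb, Sdhc or Sdhd, or began with Uqcr, with Cox and a number from Cox4 to Cox8, or with Atp5, plus Cyc1, and Cox8b was left out. The rule used no measured value except to keep the brightest probe of a symbol, but it was chosen with earlier results of these data known. It found 42 of the 14506 genes tested, 4 of complex II, 7 of complex III, 15 of complex IV and 16 of complex V. Cyc1, Cox6b1 and Cox7a1 are not analysed here. Cox6c-ps1, which the rule took in, is annotated as a transcribed pseudogene of Cox6c, so signal from near-identical copies cannot be told apart.

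Fathers were Sprague Dawley rats, an outbred strain, fed pellets with 43% as fat in the high-fat group and standard chow with 9% as fat in the control group. Mating to chow-fed females took place when the fathers were 15 weeks old. All daughters ate chow from weaning at 3 weeks, and fat was collected when they were 14 weeks old. There were 6 daughters of high-fat fathers (numbers 619, 620, 624, 629, 660 and 663) and 7 daughters of control fathers (622, 627, 631, 656, 658, 662 and 664), with 1 Affymetrix array each. The labels give neither the fat depot nor the father or litter of a daughter, so p-values measure the spread between these arrays and may be too small if daughters shared a father. Only the daughters' fathers differed in diet, and the comparison asks whether the father's diet is reflected in the fat of offspring that never ate it.

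The respiratory chain passes electrons from food to oxygen across the inner mitochondrial membrane and stores the energy as a proton gradient. Complex II, succinate dehydrogenase, also performs a step of the citric acid cycle. Complex III hands electrons from ubiquinol to cytochrome c, complex IV passes them to oxygen, and complex V, the ATP synthase, uses the gradient to make ATP. White fat holds few mitochondria for its volume, while brown fat and skeletal muscle are rich in them. Several complex IV subunits exist as tissue forms, among them the muscle and heart form Cox6a2 and its widespread counterpart Cox6a1.

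Many of these genes are known to be driven by the same factors, so the sequences upstream of members described below are shown. They run from 250 bases before to 50 bases after the start site in the promoter table of RefSeq, assembly GRCr8, in which 35 of the 42 members were matched. Sdha (chr1:30764303-30764602, plus strand) and Sdhd (chr8:59850592-59850891, minus strand) are the complex II members with the smallest p. Uqcrh (chr5:134790833-134791132, minus strand) and Uqcrc1 (chr8:118467973-118468272, plus strand) are those of complex III. Cox6a2 (chr1:192219667-192219966, minus strand) is the member that varied most between arrays. The table's start site for Cox6a2 lies 1472 bases inside the outermost end that RefSeq annotates for the gene, while for the other 4 it is that end. Of the 35 matched members, 13 had such an inner start. Each sequence is printed on the strand of its gene, and capitals mark the motifs listed after the sequences.
Sdha: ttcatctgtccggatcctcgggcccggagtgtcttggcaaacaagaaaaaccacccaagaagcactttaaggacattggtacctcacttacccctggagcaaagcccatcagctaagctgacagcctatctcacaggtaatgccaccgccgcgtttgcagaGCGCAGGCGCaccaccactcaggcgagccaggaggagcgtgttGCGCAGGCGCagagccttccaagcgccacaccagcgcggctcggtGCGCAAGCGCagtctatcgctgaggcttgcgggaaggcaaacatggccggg
Sdhd: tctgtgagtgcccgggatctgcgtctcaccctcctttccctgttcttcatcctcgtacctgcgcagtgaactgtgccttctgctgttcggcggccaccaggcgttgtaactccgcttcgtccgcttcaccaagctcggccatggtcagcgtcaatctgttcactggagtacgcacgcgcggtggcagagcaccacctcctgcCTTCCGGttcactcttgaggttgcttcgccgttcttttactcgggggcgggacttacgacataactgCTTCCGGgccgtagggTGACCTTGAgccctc
Uqcrh: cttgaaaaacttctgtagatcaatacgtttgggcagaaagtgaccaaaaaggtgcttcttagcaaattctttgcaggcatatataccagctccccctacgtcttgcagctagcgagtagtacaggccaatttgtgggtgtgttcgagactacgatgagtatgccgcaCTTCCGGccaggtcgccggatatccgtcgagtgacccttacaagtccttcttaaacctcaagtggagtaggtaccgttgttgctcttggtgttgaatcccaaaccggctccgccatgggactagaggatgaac
Uqcrc1: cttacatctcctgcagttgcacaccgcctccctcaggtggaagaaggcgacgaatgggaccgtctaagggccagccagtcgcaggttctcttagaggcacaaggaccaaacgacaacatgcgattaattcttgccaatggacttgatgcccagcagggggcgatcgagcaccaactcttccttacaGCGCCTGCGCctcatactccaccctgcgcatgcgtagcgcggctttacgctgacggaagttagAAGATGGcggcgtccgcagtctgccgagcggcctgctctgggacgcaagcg
Cox6a2: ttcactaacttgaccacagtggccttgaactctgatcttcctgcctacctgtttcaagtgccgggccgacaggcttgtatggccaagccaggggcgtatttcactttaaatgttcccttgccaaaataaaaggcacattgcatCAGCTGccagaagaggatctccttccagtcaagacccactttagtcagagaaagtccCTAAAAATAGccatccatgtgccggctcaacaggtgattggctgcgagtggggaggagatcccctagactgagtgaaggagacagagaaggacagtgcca

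Motifs were searched on both strands, and positions count from the table's start site as 0. The Sdha sequence held the motif of NRF1, an activator of respiratory genes, in capitals at -89, -46 and -1. Uqcrc1 held the same motif at -64, followed at -1 by AAGATGG, the core of the YY1 motif. CCGGAAG, the core bound by ETS factors such as GABP, lay at -48 and 19 in Sdhd and at -83 in Uqcrh, and Sdhd also held TCAAGGTCA, the motif of estrogen-related receptors, at 35. Around its inner start, Cox6a2 held none of these and instead a motif of the muscle factor MEF2, in capitals at -50, and CAGCTG, an E-box of the kind bound by muscle regulators, at -107.

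Among the 35 matched members, 7 (20%) held the NRF1 motif, against 5.67% of 21851 protein-coding promoters and 4.25% of all 33469 promoters of the table. The ETS core was found in 14 members (40.0%), against 10.7% of protein-coding and 8.75% of all promoters, and the YY1 core in 8 members (22.9%), against 7.29% and 7.01%. In 13 of the 35 matched members no NRF1, ETS or YY1 motif was found. The receptor motif was in 2 members (5.71%), Sdhd and Atp5mc3, against 0.366% and 0.433%. The MEF2 motif was in 1 member (2.86%), Cox6a2, against 0.0686% and 0.137%, and the E-box in 7 members (20%), against 15.2% and 15.1%. None of the motifs listed shared bases in the sequences shown. These are matches of letters in a window and were not tested as binding sites.

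Values are log2 levels as the authors normalized them, on arrays whose medians were nearly equal. The fat label was met by adipocyte markers, 12 of 12 measured, whose mean ran from 12.31 to 12.67 in high-fat daughters and from 12.27 to 12.44 in control daughters. Some pieces also held skeletal muscle transcripts. The mean of 17 measured muscle markers of 20 listed, members left out, was 12.03 in high-fat 629 and 9.46 in high-fat 619, 12.18 in control 662 and 12.02 in control 664. It lay between 7.47 and 7.54 in the other high-fat daughters and between 7.51 and 7.74 in the other control daughters. Ucp1, the uncoupling protein of brown fat, read 11.02 in high-fat 629, 10.96 in high-fat 663, 9.76 in control 662 and 9.28 in control 658, and 6.11 to 7.40 elsewhere. The spread of values was smallest in control 658 (SD 1.78), control 631 (1.86) and high-fat 660 (1.86) and reached 1.96 in others. In exact two-sided permutation tests, adjusted over 7 marker lists, no list differed between the groups, with adjusted p of 0.26 for adipocyte (difference of means 0.12, 4 of the 6 high-fat arrays above every control array) and 0.86 for muscle markers (-0.28). In whole tissue, fewer cells of a type and less RNA per cell cannot be told apart.

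Most members had a slightly higher mean in daughters of high-fat fathers, and no difference passed the test. Of 42 members, 37 were higher and 5 lower, with a median log2 difference, high-fat minus control, of 0.089, and differences from -0.26 to 0.27. Over all genes 58% were higher with a median of 0.03. Among the 7253 genes in the brighter part of the table, those with a mean level above the median gene, 84.4% were higher with a median of 0.085. That part held 38 of the members, so in this fit the members leaned about as much as the brighter genes together. Genes matched to the members for level were not compared. Without the 3 arrays of smallest spread, 85.7% of the members were higher (median 0.09), against 71.9% of the brighter genes (median 0.05). With the muscle marker mean as a covariate the shares were closer, 88.1% and 84.8%. Within daughters 656 to 664 they were 38.1% and 69.6%. With limma, 0 of 42 members and 0 of 14506 genes (0%) passed an adjusted p of 0.05, and the smallest adjusted p of the members was 0.53. At an unadjusted p under 0.05, limma gave 3 members (7.14%), Cox6a1, Sdha and Cox5a, all higher, against 7.96% of all genes in either direction, 5.42% higher and 2.54% lower. An unmoderated linear model gave 7 members (16.7%), against 7.41% of all genes, and also 0 after adjustment.

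**Figure D1:**
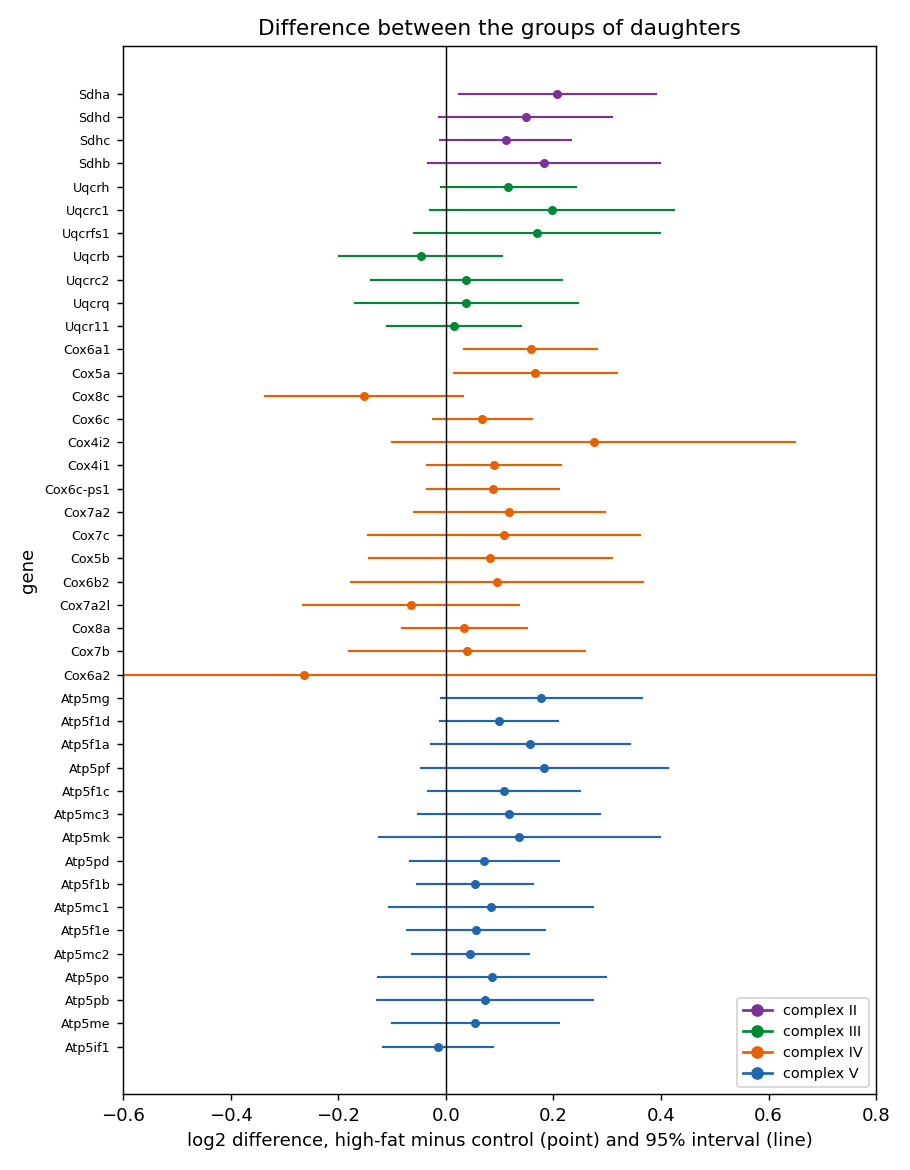
Log2 difference between high-fat and control daughters for each of the 42 members (vertical axis, grouped by complex). Points are limma's estimates and lines their 95% confidence intervals, and the horizontal axis is cut so that the interval of Cox6a2, -1.84 to 1.31, runs past both edges. The points lie right of 0 for 37 members, while the interval excludes 0 for Sdha, Cox6a1 and Cox5a only, before adjustment over all genes.

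The count of 3 members rested on few arrays. It was 1 (2.38%) without high-fat 620, high-fat 624 or control 631, against 4.09%, 3.50% and 4.92% of all genes in those fits. Without control 662 it was 9 (21.4%), against 8.71% of all genes, and without high-fat 660 it was 16 (38.1%), against 17.3%. The groups overlapped for 42 of 42 members, and they did not overlap for 0.0827% of all genes. For 5 members, Cox6a1, Cox5a, Cox6c, Atp5f1d and Atp5f1a, all 6 high-fat daughters lay above the mean of the controls. How many of all genes did so was not counted, so this describes the arrays and does not set these members apart.

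Complex II had the largest median of the 4 complexes, 0.17, with 4 of 4 members higher. Sdha, the flavoprotein that oxidizes succinate, had log2 levels of 10.70, 10.67, 10.67, 10.93, 10.35 and 10.48 in high-fat daughters 619, 620, 624, 629, 660 and 663. Its levels in control daughters 622, 627, 631, 656, 658, 662 and 664 were 10.43, 10.43, 10.27, 10.44, 10.34, 10.64 and 10.43. High-fat 629, a piece with muscle and a high Ucp1 level, was the highest. Of the high-fat daughters 4 lay above every control, and 660 and 663 lay within the range of the controls. The difference was 0.21 ± 0.09 (SE, n = 6 and 7), a 1.15-fold ratio, with limma's unadjusted p of 0.029 and adjusted p of 0.53. It was 0.22 with the muscle marker mean as a covariate and 0.16 in the 9 arrays with little muscle signal. Those 9 arrays still held high-fat 663 and control 658, where Ucp1 read 10.96 and 9.28. With the spread of each array as a covariate the Sdha difference was 0.12, and its unadjusted p was 0.15.

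Sdhd, a membrane anchor, ran from 10.08 through a median of 10.32 to 10.51 in high-fat daughters and from 10.03 through 10.12 to 10.40 in controls, a difference of 0.15 ± 0.07 (SE). Sdhc, the other anchor, differed by 0.11 ± 0.06 and Sdhb, the iron-sulfur subunit that passes the electrons on, by 0.18 ± 0.10. In each of these 3, 5 of 6 high-fat daughters lay above the control mean, and the adjusted p was 0.53.

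Complex III had a median of 0.04, with 6 of 7 members higher and 0 at an unadjusted p under 0.05. Its members parted in size. Uqcrc1, a core subunit, ran from 10.17 through 10.49 to 10.82 in high-fat daughters and from 10.08 through 10.25 to 10.70 in controls. The highest array of each group for Uqcrc1 was a piece with muscle and a high Ucp1 level, high-fat 629 and control 662. The difference was 0.20 ± 0.11 (SE), and 0.21 in the 9 arrays with little muscle signal. Uqcrfs1, the Rieske iron-sulfur protein that takes electrons from ubiquinol, ran from 8.95 through 9.26 to 9.58 in high-fat daughters and from 8.80 through 9.04 to 9.38 in controls, a difference of 0.17 ± 0.11. Uqcrh, the hinge protein next to cytochrome c1, ran from 11.91 through 12.07 to 12.22 in high-fat daughters and from 11.84 through 11.96 to 12.07 in controls, a difference of 0.12 ± 0.06. Their adjusted p was 0.53 each in limma.

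The other complex III members differed by less. Uqcrc2, the second core subunit, differed by 0.04 ± 0.08, the small subunit Uqcrq by 0.04 ± 0.10 and Uqcr11 by 0.02 ± 0.06. Uqcrb, a small subunit at the ubiquinone site, had the opposite sign, -0.05 ± 0.07. Its other probes gave the same, -0.05 each, so the sign does not hang on the probe chosen.

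Complex IV, cytochrome c oxidase, had a median of 0.09 with 12 of 15 members higher, and held 2 of the 3 members with an unadjusted p under 0.05. Cox6a1, the widespread form of subunit VIa, had the smallest p of the 42 members. Its log2 levels were 12.23, 12.27, 12.43, 12.16, 12.15 and 12.26 in high-fat daughters 619, 620, 624, 629, 660 and 663. In control daughters 622, 627, 631, 656, 658, 662 and 664 they were 12.17, 12.15, 12.10, 12.11, 11.98, 12.17 and 11.97. The difference was 0.16 ± 0.06 (SE), a 1.12-fold ratio with unadjusted p of 0.016 and adjusted p of 0.53, and high-fat 629 and 660 overlapped the upper controls. It was 0.18 in the 9 arrays with little muscle signal, 0.14 in daughters 619 to 631 and 0.14 in daughters 656 to 664. With array spread as a covariate it was 0.11.

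Cox5a, a subunit at the regulatory site of the enzyme, ran from 11.69 through 11.77 to 11.97 in high-fat daughters and from 11.48 through 11.65 to 11.79 in controls. The difference was 0.17 ± 0.07 (SE), with unadjusted p of 0.033 and adjusted p of 0.53 in limma. Its second probe gave 0.15 ± 0.06. Cox6c had the smallest spread of the members over the 13 arrays (SD 0.06), from 13.23 through 13.29 to 13.32 in high-fat daughters and from 13.15 through 13.21 to 13.30 in controls, a difference of 0.07 ± 0.04.

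Complex IV also holds the tissue forms. Cox6a2, the form of muscle and heart, had log2 levels of 8.34, 7.54, 7.57, 11.01, 7.84 and 7.504 in high-fat daughters 619, 620, 624, 629, 660 and 663. In control daughters 622, 627, 631, 656, 658, 662 and 664 they were 7.42, 7.76, 7.62, 7.55, 7.80, 11.00 and 10.80. The 4 highest arrays were the same 4 in which the muscle marker mean was highest. The difference was -0.26 ± 0.74 (SE), with a confidence interval of -1.84 to 1.31 and adjusted p of 0.87 in limma. It was -0.06 with the muscle marker mean as a covariate and -0.02 without those 4 arrays.

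Cox4i2, the form of subunit IV best known from lung, had log2 levels of 8.37, 8.85, 8.80, 7.82, 8.36 and 8.81 in high-fat daughters 619, 620, 624, 629, 660 and 663. In control daughters 622, 627, 631, 656, 658, 662 and 664 they were 8.50, 8.71, 8.17, 8.32, 7.90, 7.96 and 8.02. The 4 lowest were high-fat 629 and controls 658, 662 and 664, which are the 3 arrays with a muscle mean above 12 and control 658, which is not. The difference was 0.27 ± 0.18 (SE) with adjusted p of 0.53, and 0.38 with an unadjusted p of 0.040 in the 9 arrays with little muscle signal. It was -0.003 in daughters 619 to 631, 0.54 in daughters 656 to 664 and 0.17 with array spread as a covariate. Of 28 alternative fits of Cox4i2, 3 had an unadjusted p under 0.05.

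Cox4i1, the widespread form of subunit IV, ran from 11.59 through 11.74 to 11.90 in high-fat daughters and from 11.55 through 11.69 to 11.71 in controls, a difference of 0.09 ± 0.06. Cox7a2, the widespread form of subunit VIIa, ran from 11.99 through 12.09 to 12.34 in high-fat daughters and from 11.82 through 11.97 to 12.24 in controls, a difference of 0.12 ± 0.08. Its second probe gave 0.12 ± 0.08 as well. Cox6b2, a form known from testis, ran from 7.46 through 7.89 to 8.06 in high-fat daughters and from 7.39 through 7.81 to 8.05 in controls, a difference of 0.10 ± 0.13. Each of these 3 had overlapping groups, with adjusted p of 0.53, 0.54 and 0.72 in limma.

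**Figure D2:**
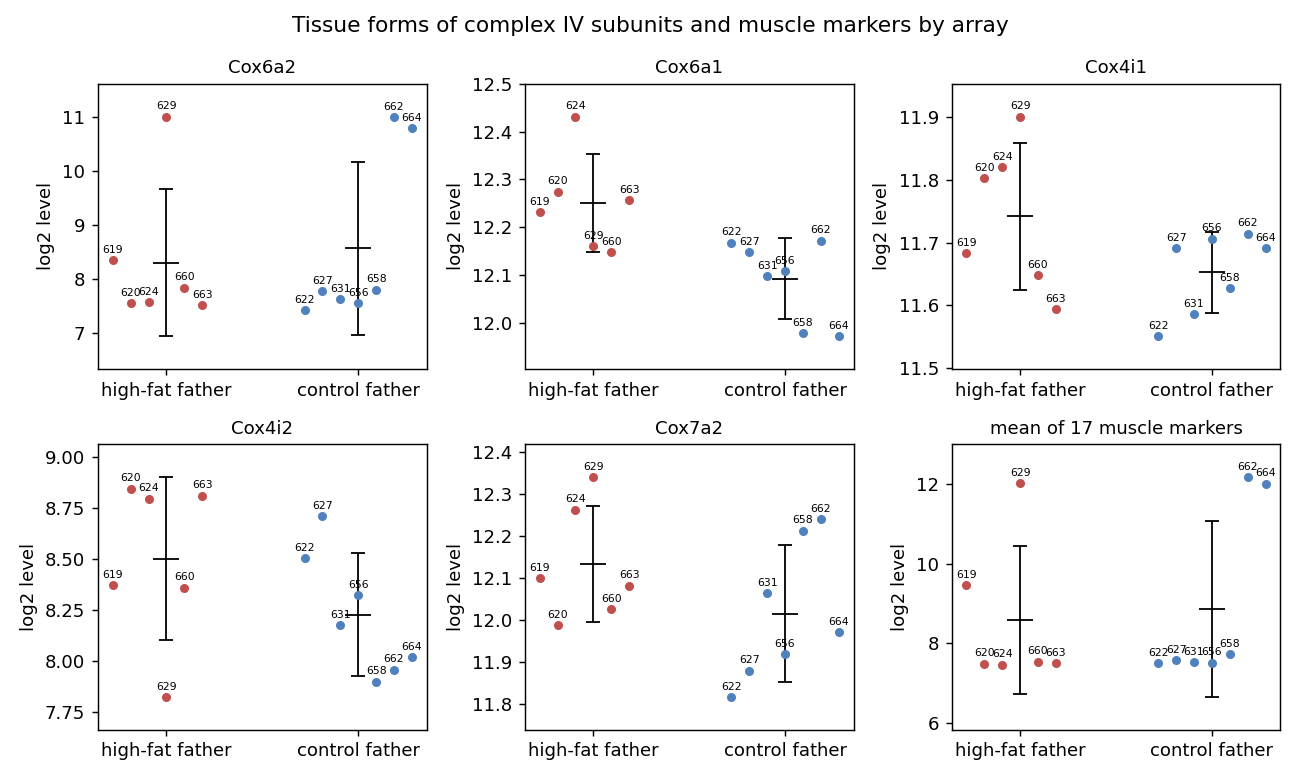
Log2 level of 5 complex IV subunits and the mean of 17 muscle markers in each array, with high-fat-father daughters in red at left and control-father daughters in blue at right. Points carry the daughter's number, and black bars are the group mean and SD (n = 6 and 7). Cox6a2 and the muscle mean were high in high-fat 629 and controls 662 and 664, where Cox4i2 lay between 7.82 and 8.02.

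The remaining complex IV members differed by -0.15 to 0.11. Cox8c, a testis form, had the lowest of these, -0.15 ± 0.09, and a mean of 6.89 in high-fat and 7.05 in control daughters. Cox7a2l, which helps join complexes III and IV into supercomplexes, was the other lower member, -0.06 ± 0.09. The widespread small subunits Cox7c, Cox5b, Cox7b and Cox8a differed by 0.11, 0.08, 0.04 and 0.03, and Cox6c-ps1 by 0.09. Detection was not assessed, so a level near that of Cox8c may be background.

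Complex V had a median of 0.085, with 15 of 16 members higher and 0 at an unadjusted p under 0.05. Atp5mg, subunit g of the membrane part, ran from 9.08 through 9.46 to 9.60 in high-fat daughters and from 9.05 through 9.30 to 9.37 in controls, a difference of 0.18 ± 0.09 (SE). High-fat 660 was the lowest of its group and lay among the low controls. Atp5f1d, the delta subunit of the central stalk, ran from 13.05 through 13.14 to 13.21 in high-fat daughters and from 12.86 through 13.05 to 13.12 in controls, a difference of 0.10 ± 0.05. Both had an adjusted p of 0.53 in limma.

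In the catalytic head, Atp5f1a, the alpha subunit, differed by 0.16 ± 0.09 and Atp5f1b, the catalytic beta subunit, by 0.05 ± 0.05. The gamma subunit Atp5f1c differed by 0.11 ± 0.07 and the epsilon subunit Atp5f1e by 0.06 ± 0.06. The 3 genes for the rotating c ring, Atp5mc1, Atp5mc2 and Atp5mc3, differed by 0.08, 0.05 and 0.12. The stalk subunits Atp5pb, Atp5pd, Atp5pf and Atp5po differed by 0.07, 0.07, 0.18 and 0.09, and the small membrane subunits Atp5me and Atp5mk by 0.06 and 0.14. A second, dimmer probe of Atp5pd gave 0.12 ± 0.06, against 0.07 ± 0.06 for the probe used. Second probes of Atp5mc2, Atp5mc3 and Atp5mk gave 0.04, 0.11 and 0.15.

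Atp5if1, which inhibits the enzyme when it would run backwards and split ATP, was the exception in complex V. It ran from 10.91 through 11.02 to 11.12 in high-fat daughters and from 10.95 through 11.02 to 11.08 in controls. The difference was -0.01 ± 0.05, with a confidence interval of -0.12 to 0.09 and adjusted p of 0.89 in limma.

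**Figure D3:**
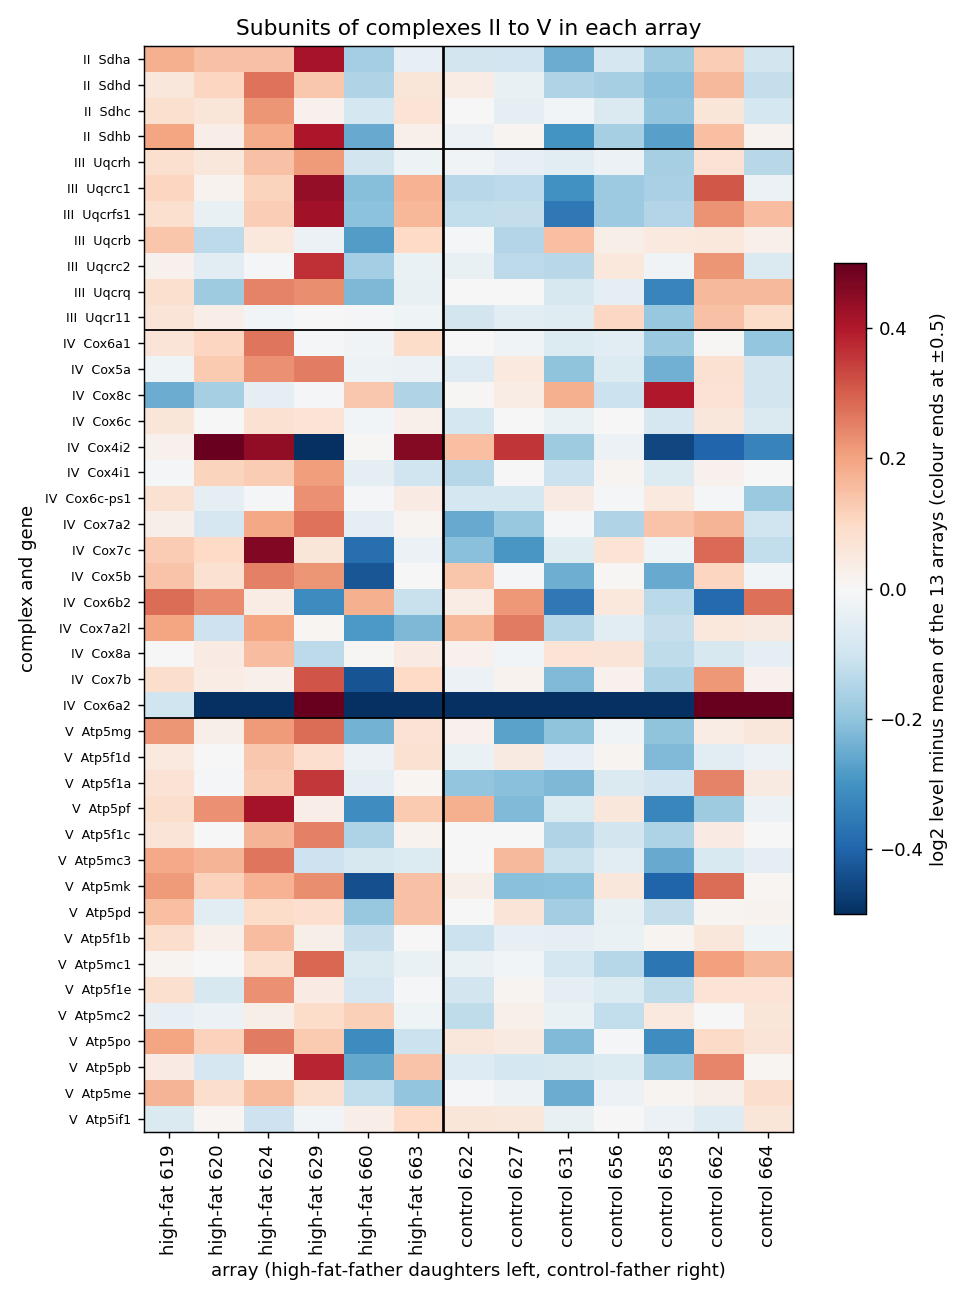
Level of each member in each array relative to the mean of the 13 arrays (colour, log2 units, ending at ±0.5), with high-fat-father daughters left of the black line and control-father daughters right of it. Rows are ordered by complex and by p. The columns of high-fat 660 and of controls 631 and 658 are blue over most rows, and those of high-fat 619, 624 and 629 and of control 662 mostly red, across all 4 complexes.

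Arrays of both groups stood high or low over many members. The median over the 42 members of the deviation from each gene's mean was 0.15 in high-fat 624, 0.13 in high-fat 629, 0.08 in high-fat 619, 0.03 in high-fat 620, 0.01 in high-fat 663 and -0.12 in high-fat 660. In controls it was 0.07 in 662, 0.00 in 664, -0.02 in 622 and in 627, -0.03 in 656, -0.11 in 631 and -0.16 in 658. The same median over all genes lay between -0.10 in control 658 and 0.02 in high-fat 624. Over the brighter genes it was 0.10 in high-fat 624, 0.01 in high-fat 629, -0.04 in high-fat 660, -0.10 in control 631 and -0.26 in control 658. The low values of controls 631 and 658 were thus also seen over brighter genes. High-fat 660 held the lowest value of its group for 28 of 42 members and control 658 for 18, while control 662 held the highest for 25 and high-fat 629 for 18. The 3 lowest arrays are the 3 with the smallest spread of values. Of the 4 highest, 3 are among the 4 with most muscle signal, high-fat 619, high-fat 629 and control 662. Ucp1 was also high in high-fat 629 and control 662 (11.02 and 9.76), so muscle and brown fat signal cannot be told apart there. The part of array spread and muscle signal was not tested beyond the fits that follow, and brown fat signal was not fitted. Array spread is computed from the same levels, bright genes included, so its fit cannot separate spread from those levels. With the spread of each array as a covariate 29 of 42 members were higher (69.0%), with a median of 0.04. Of all genes 51.7% were higher there (median 0.003), and of the brighter genes 54.0% (median 0.007). In that fit 0 members had an unadjusted p under 0.05, against 2.81% of all genes. With the muscle marker mean as a covariate 37 of 42 members were higher (88.1%), with a median of 0.10. Of all genes 58.5% were higher there (median 0.03), and of the brighter genes 84.8% (median 0.09). In the muscle fit 8 members had an unadjusted p under 0.05 (19.0%), against 8.67% of all genes.

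The comparison was also made within each range of daughter numbers. The labels number the daughters from 619 to 631 (4 high-fat and 3 control) and from 656 to 664 (2 high-fat and 4 control), and what the ranges mean is not given. Within 619 to 631 the median was 0.16, with 37 of 42 members higher (88.1%), against 55.9% of all genes and 77.1% of the brighter genes. There 15 members (35.7%) had an unadjusted p under 0.05, all higher, against 13.7% of all genes and 11.2% of the brighter genes. Within 656 to 664 the median was -0.03, with 16 of 42 higher (38.1%), against 58.5% of all genes and 69.6% of the brighter genes. There 2 members (4.76%) had such a p, Cox4i2 higher and Cox7a2l lower, against 0.931% of all genes and 0.979% of the brighter genes. In both ranges 13 of 42 members were higher, against 5076 of 14506 genes and 3882 of the 7253 brighter genes, so the members did not exceed these shares. Among the 13 were Cox6a1 (0.14 in each) and Atp5f1d (0.08 in 619 to 631 and 0.10 in 656 to 664).

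**Figure D4:**
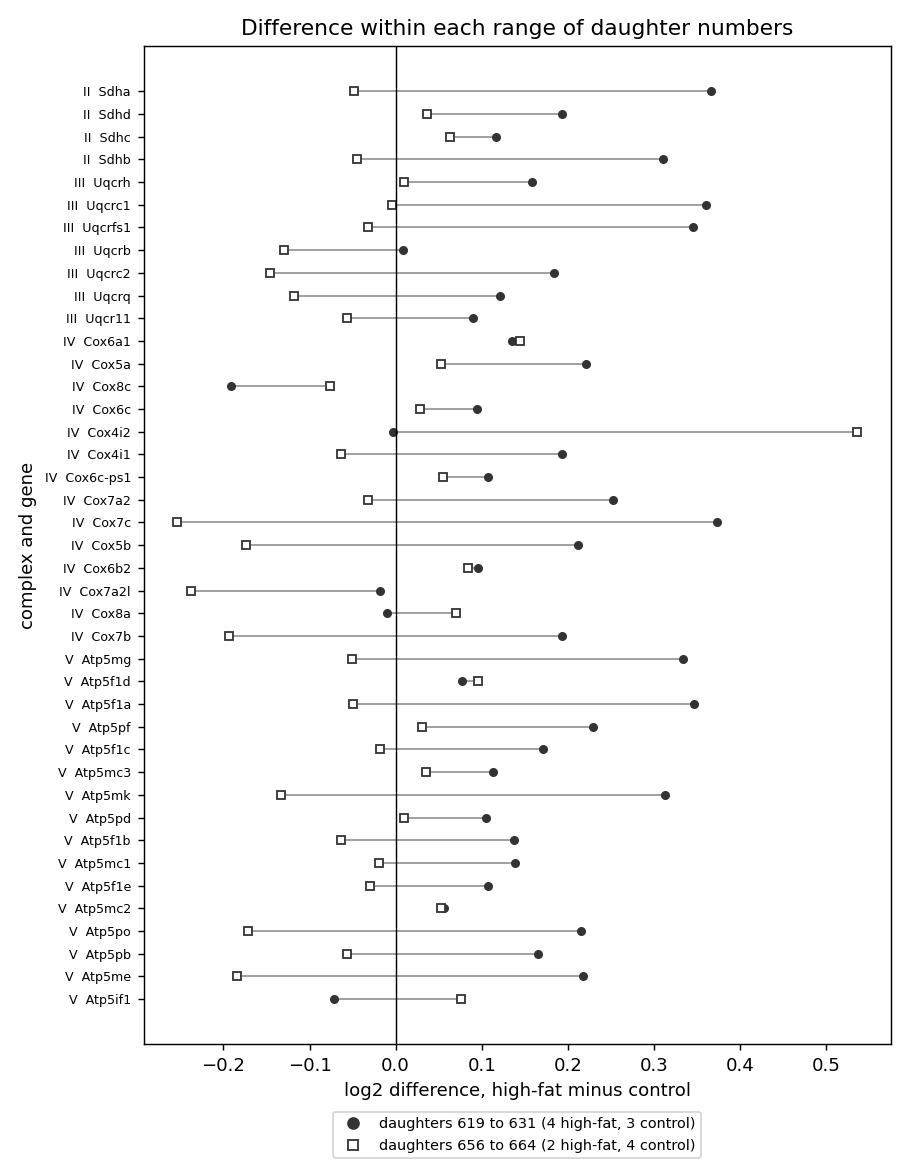
Log2 difference between high-fat and control daughters within daughters 619 to 631 (filled circles) and within daughters 656 to 664 (open squares) for each member but Cox6a2, grouped by complex. Cox6a2, with differences of 1.02 and -1.62, lies outside the axis and is left out. For most members the square lies left of the circle, while for Cox6a1, Atp5mc2 and Cox6b2 the symbols nearly meet.

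The difference between the ranges was tested as an interaction in limma, and none passed. No member and none of the 14506 genes had an adjusted p under 0.05 (smallest 0.999). At an unadjusted p under 0.05 there were 7 members (16.7%), all with a smaller difference in 656 to 664, against 3.47% of all genes in either direction and 1.68% in that direction, which was 2.26% of the brighter genes. The difference was smaller in 656 to 664 for 36 of 42 members (85.7%), against 50.1% of all genes and 60.4% of the brighter genes. The members were Atp5me, Cox7c, Sdha, Atp5f1a, Cox4i1, Atp5mg and Atp5po. The difference of Sdha was 0.37 ± 0.09 (SE) in 619 to 631 and -0.05 ± 0.12 in 656 to 664, and that of Cox7c was 0.37 ± 0.11 and -0.25 ± 0.15. For the catalytic head subunit Atp5f1a the values were 0.35 ± 0.09 and -0.05 ± 0.12, and for Atp5me they were 0.22 ± 0.08 and -0.18 ± 0.09. The pattern was not particular to complexes II to V. Of 33 measured complex I subunits, 11 (33.3%) had an unadjusted p under 0.05 within 619 to 631. For 31 of the 33 the difference was smaller in 656 to 664, and 8 (24.2%) had an unadjusted interaction p under 0.05 in limma.

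Muscle signal was placed unevenly over the ranges. In 619 to 631 the arrays that carried it were high-fat ones, 619 and 629, and in 656 to 664 they were controls, 662 and 664. With the muscle marker mean as a covariate the interaction gave 2 members (4.76%), against 1.56% of all genes, and without those 4 arrays 1 member (2.38%), against 1.17% of all genes. The median interaction of the members was -0.19, and -0.07 and -0.10 in those fits. In each of those fits the interaction stayed negative for 33 members, against 36 in the main interaction fit. The median interaction over all genes was -0.005 in each of those fits. How many of all genes were negative there was not counted. The count of 7 was 2 without high-fat 660, against 1.68% of all genes, and 4 without high-fat 624, control 631 or control 662, with 470, 344 and 307 of the 14506 genes. It was 13 (31.0%) without high-fat 663, against 5.16% of all genes, and 13 without control 658, against 13.7%. Without high-fat 660, 7 of all genes passed the adjusted threshold for the interaction.

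Other genes of the pathway are given from the same comparison and arrays. The shares to set beside them are 7.96% of all genes and 9.22% of the brighter genes at an unadjusted p under 0.05, and 84.4% of the brighter genes higher with a median of 0.085. Of 33 measured complex I subunits (38 listed), 30 were higher and 3 lower, with a median of 0.13, 4 at an unadjusted p under 0.05 (12.1%) and 0 past the adjusted threshold. The smallest p belonged to the accessory subunits Ndufb8 (0.17 ± 0.06) and Ndufb10 (0.16 ± 0.07). Of 26 measured assembly factors of complexes II to V (39 listed), 23 were higher, with a median of 0.12 and 3 at such a p (11.5%), and Sco1, which delivers copper to complex IV, differed by 0.24 ± 0.09. Lrpprc, which stabilizes mitochondrial transcripts, differed by 0.23 ± 0.09.

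Against the same shares, of 16 measured carriers of electrons and ATP (19 listed), 15 were higher, with a median of 0.09 and 1 at such a p, the mitochondrial phosphate carrier Slc25a3 (0.12 ± 0.05). Coq5, an enzyme of ubiquinone synthesis, differed by 0.26 ± 0.12. Of 15 measured regulators of mitochondrial biogenesis (18 listed), 12 were higher, with a median of 0.12 and 2 at such a p, Yy1 (0.17 ± 0.07) and Tfb2m, a mitochondrial transcription factor (0.25 ± 0.11). In limma 0 genes of these 4 lists passed an adjusted p of 0.05, each named gene having 0.53, and 6.25% of the carriers and 13.3% of the regulators had an unadjusted p under 0.05.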

How the data were processed

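The deposited table holds log2 levels of 29214 probes for 13 arrays of biotin-labelled cRNA. The authors made them with RMA and Partek, per the submitters' processing notes, which name no version. RMA subtracts background, equalizes the distributions of the arrays and joins the probes of a set, which can shrink differences. That the deposited values are log2 follows from their range, and precision is set by how many arrays there are. The platform annotation gives 15310 probes 1 symbol and 323 several, and it omits 13581. Probes with 1 symbol were kept, with the brightest per symbol, which left 14506 genes and no filter on dim genes. For the 7 members with several probes each probe was also fitted.

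Groups were taken from the sample titles. They were compared with limma 3.58.1 in R 4.3.3 (lmFit and eBayes, two-sided, Benjamini-Hochberg adjustment over all genes, threshold 0.05), as high-fat minus control, with no covariate, and the steps were tested on simulated data. Errors after ± are limma's standard errors. Levels in every array, or the lowest, the median and the highest, are given for 16 members chosen by rule, the 2 with the smallest p of each complex, the tissue forms, Sdha, Uqcrfs1, Atp5if1 and those of largest and smallest spread. Other members are given by their differences, and the Cox8b levels were added after they were seen. The members, gene lists and alternatives were chosen with earlier results of these data known. The alternatives were other scalings, probe choices, variance models, covariates and left-out arrays. Promoter sequences are RefSeq's (GRCr8), and no array coordinate was used.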

Additional observations from a re-analysis of the deposited data

Results flagged for a closer look

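Within each group, the gap between the outermost array and its neighbour was set against the range of the group for the 42 members and the 4 complex means. Of 92 sets of values, 6 passed Dixon's limit, and chance alone would give about 4.6, or 5%.

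Of these, 2 were the high value of high-fat 629, the high-fat daughter with most muscle signal and also a high Ucp1 level. Its Cox6a2 level was 11.01, with the other high-fat daughters between 7.504 and 8.34, and its level of Uqcrc2, a core subunit of complex III, was 11.39, with the others between 10.86 and 11.05. Another 2 were the low value of high-fat 660, an array with a small spread of values. It read 10.49 for Atp5mk, a small subunit of ATP synthase, with the others between 11.04 and 11.16, and 9.21 for Cox5b, with the others between 9.64 and 9.89. The last 2 were low values of controls with a small spread. Control 658 read 12.86 for Atp5f1d, with the other controls between 13.02 and 13.12, and control 631 read 7.36 for Atp5me, with the others between 7.58 and 7.69. The part of muscle signal, brown fat signal and array spread in these values was not tested.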

How the results depend on the processing

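For high-fat against control, the number of members and of genes past an adjusted p of 0.05 was 0 under every alternative run, a threshold of 0.1 included. For the range interaction it was 0 except without high-fat 660, where 7 genes passed. The median difference of the members stayed between 0.04 and 0.16, and between 0.07 and 0.13 without each array in turn, but turned to -0.032 within daughters 656 to 664, where Sdha was -0.048. The count of members with an unadjusted p under 0.05 was 3 as reported (7.14%, against 7.96% of all genes). It was 0 with array spread as a covariate (2.81% of all genes) and 1 (2.38%) with the number range as a covariate (4.21% of all genes). With the 3 least spread arrays left out it was 6 (14.3%, against 9.62%), and with no moderation 7 (16.7%, against 7.41%). It was 8 (19.0%) with array weights (15.0% of all genes), with arrays centred on their median (9.78%) or with the muscle mean as a covariate (8.67%). Within 619 to 631 it was 15 (35.7%, against 13.7%), and without each array in turn 1 to 16. The count over all genes, 1155 as reported, was 135 within 656 to 664, 407 with array spread, 550 without the 4 arrays with most muscle signal, 611 with the number range, 661 among brighter genes, 1990 within 619 to 631, 2092 over all probes, 2179 with array weights, and 508 to 2508 without each array. Of those genes 68.1% were higher, and 82.9% with arrays centred. The 7 members of the range interaction became 2 with the muscle mean, 1 without those 4 arrays and 2 to 13 without each array, settings chosen after seeing the data. The cause was not tested. Among 447 fits of the 16 named members, 14 changed the sign. No paired analysis was possible because the groups share no replicate number. Detection of dim members was not assessed.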

Other observations

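Cox8b, a form of subunit VIII known from muscle and brown fat, is not counted among the members. Its log2 levels were 6.99, 6.62, 6.33, 10.32, 6.45 and 8.61 in high-fat daughters 619, 620, 624, 629, 660 and 663. In control daughters 622, 627, 631, 656, 658, 662 and 664 they were 6.87, 6.46, 6.62, 6.50, 7.69, 9.94 and 8.89. High-fat 663 and control 658, which had little muscle signal, were raised in Cox8b and in Ucp1 (10.96 and 9.28) while Cox6a2 read 7.504 and 7.80 there. Control 664, with muscle markers at 12.02, had Ucp1 at 6.11 and Cox6a2 at 10.80. The difference between the groups was -0.01 ± 0.72 (SE), with adjusted p of 0.99 in limma.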
